A study of Rattus norvegicus with 8 samples.

Results

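Tm9sf2, Rab11a, Bri3, Itsn1 and Nckipsd are genes of endosomal trafficking and of the scaffolds that link endocytosis to actin. Their 5 probes were taken by gene symbol from the authors' deposited tables of changed genes, which name 450 probes out of 15207 measured. The first 3 genes encode proteins of endosome and lysosome membranes and the other 2 encode actin-linked endocytic scaffolds. The tables list probes whose mean PNFLX value lay at least 0.4 (log2) from the CONTROL median with an unadjusted p of at most 0.05, so the members were selected on the difference between the groups, and their changes are given as a description. Calls from the fit over all probes are counted for reference and are no independent test of these genes.

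The tissue was the whole medial prefrontal cortex (mPFC) of rats 6 months old, hybridised as Cy3-labelled cRNA to custom Agilent one-colour arrays. The PNFLX group (4 arrays) was given the antidepressant fluoxetine, which blocks serotonin reuptake, at 10 mg/kg as pups from postnatal day 2 to 21, and the CONTROL group (4 arrays) was given a 5% sucrose solution as vehicle over the same days. Groups follow the sample titles, because the free-text descriptions of CONTROL 2, CONTROL 3 and CONTROL 4 mention fluoxetine while their titles and source names call them control. Whether each array stands for a different animal is not stated in the labels. The spread given is therefore that between arrays, and their number limits the precision.

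Material taken up at the cell surface passes into early endosomes, from which it is returned to the membrane through recycling endosomes or passed on to lysosomes for breakdown. Scaffold proteins gather the coat, the membrane-bending proteins and the actin machinery at the site where a vesicle forms. In cortical neurons these steps retrieve synaptic vesicle membrane at terminals and move neurotransmitter receptors to and from dendritic spines. TM9SF2 is a protein with many membrane spans found in endosomes and the Golgi, RAB11A is the GTPase that marks recycling endosomes, and BRI3 (brain protein I3) is a small membrane protein of lysosomes. ITSN1 (intersectin) is an endocytic scaffold with EH and SH3 domains, and NCKIPSD is an SH3 adaptor that binds NCK and promotes actin assembly. The Bri3 probe is annotated as brain protein I3 and is not the integral membrane protein Itm2c, for which the name BRI3 is also in use.

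The stretches of 250 bases before the annotated starts are shown so that the genes that were higher together can be set beside those that were lower together. They come from RefSeq (GRCr8), in which all 5 genes were matched. Tm9sf2 lies on the + strand (chr15:105607958-105608207), Rab11a on the - strand (chr8:74141685-74141934) and Bri3 on the - strand (chr12:15463366-15463615). Itsn1 (chr11:44464297-44464546) and Nckipsd (chr8:118390446-118390695) lie on the + strand. Since RefSeq also annotates longer transcripts, the windows of Tm9sf2, Bri3 and Nckipsd lie wholly and those of Rab11a and Itsn1 partly within the gene's annotated span. Capitals mark matches, on either strand, to any of 5 motifs. These are the GC box with the letters GGGCGG, the ETS core with the letters CCGGAAG, the TATA box with the letters TATAAA, the CCAAT box with the letters of its name, and the E-box with the letters CACGTG, which is the core of the CLEAR element of lysosomal genes.
Tm9sf2: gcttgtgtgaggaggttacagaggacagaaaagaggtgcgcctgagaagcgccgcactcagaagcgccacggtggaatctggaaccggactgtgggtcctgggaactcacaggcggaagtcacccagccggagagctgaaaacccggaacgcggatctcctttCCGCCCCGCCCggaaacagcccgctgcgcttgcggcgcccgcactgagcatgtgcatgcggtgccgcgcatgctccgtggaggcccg
Rab11a: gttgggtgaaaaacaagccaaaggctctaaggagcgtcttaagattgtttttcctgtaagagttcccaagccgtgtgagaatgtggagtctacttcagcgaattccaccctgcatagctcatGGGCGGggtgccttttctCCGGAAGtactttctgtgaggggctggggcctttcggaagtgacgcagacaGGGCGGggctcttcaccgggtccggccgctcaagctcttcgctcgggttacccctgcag
Bri3: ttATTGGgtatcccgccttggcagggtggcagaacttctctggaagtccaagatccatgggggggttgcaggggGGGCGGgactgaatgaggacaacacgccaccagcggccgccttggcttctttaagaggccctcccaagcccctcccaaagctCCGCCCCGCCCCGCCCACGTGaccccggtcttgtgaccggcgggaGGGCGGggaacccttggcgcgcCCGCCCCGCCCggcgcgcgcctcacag
Itsn1: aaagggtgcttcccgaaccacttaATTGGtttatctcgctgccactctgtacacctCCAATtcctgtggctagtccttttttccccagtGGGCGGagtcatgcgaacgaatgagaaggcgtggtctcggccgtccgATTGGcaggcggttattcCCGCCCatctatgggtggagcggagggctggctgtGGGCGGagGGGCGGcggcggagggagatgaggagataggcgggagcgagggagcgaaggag
Nckipsd: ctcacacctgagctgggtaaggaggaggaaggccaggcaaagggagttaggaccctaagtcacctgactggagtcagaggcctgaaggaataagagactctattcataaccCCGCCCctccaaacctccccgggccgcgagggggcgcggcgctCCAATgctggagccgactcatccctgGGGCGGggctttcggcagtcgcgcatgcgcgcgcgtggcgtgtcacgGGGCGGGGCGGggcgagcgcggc

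Each of these 5 windows held a GC box, which is present in 30.5% of all 33469 such windows in the table. Tm9sf2 and Rab11a had 2 matches each, Itsn1 and Nckipsd had 4 each and Bri3 had 7, and adjacent GC boxes overlap in Tm9sf2, Bri3 and Nckipsd. The E-box was found only for Bri3, from 79 to 74 bases before the start, where it shares 1 base with a GC box, and 5.59% of all windows hold it. The ETS core was found only for Rab11a (7.27% of all windows). The CCAAT box was found 3 times for Itsn1 and once each for Bri3 and Nckipsd (34.0% of all windows), and no window of a member held the TATA box (12.9% of all windows). Bri3 has another annotated start on chromosome 12, whose 250 bases held 0 matches to any of the 5 motifs, and no source used here says which start the measured transcript uses. The GC content of the 5 printed windows was 56.0% to 69.2%, and the median of all windows was 51.2%. The motifs were chosen after the sequences were seen, and a match is a description of letters, not of binding.

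Levels are given as background-subtracted signal (Agilent's processed signal, linear scale, arbitrary units), which was not scaled between arrays. Changes are differences of the deposited log2 values, in which every probe has its CONTROL median at 0, and their SE is limma's. Signals of different probes are not compared with each other.

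Of the endosome and lysosome membrane genes, Tm9sf2 had the largest change on the deposited scale. Its signal was 1171, 1099, 1746 and 1396 on PNFLX arrays 1 to 4, against 29.5, 3.46, 13.1 and 5.50 on CONTROL arrays 1 to 4. All 4 PNFLX arrays were bright and close together, all 4 CONTROL arrays were dim, and the groups did not overlap. PNFLX minus CONTROL was 6.96 ± 0.60 (log2, SE, n = 4 per group). The dimmest PNFLX signal was 37.3 times the brightest CONTROL signal. The CONTROL signals were only 1.45 to 4.70 times the lowest signal among the 450 listed probes of the same array, so Tm9sf2 in CONTROL is near the bottom of the measured range and the size of its change depends on background. With 50 added to each signal, the change was 4.48 (log2), below that of Bri3 (4.96). This setting was chosen after the data were seen and leaves out the scaling between arrays.

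Rab11a, the GTPase of recycling endosomes, was the membrane gene with the smallest change, and its CONTROL signals stood furthest above the bottom of the measured range. Its signal was 547, 736, 836 and 814 on PNFLX arrays 1 to 4, against 123, 95.1, 143 and 54.0 on CONTROL arrays 1 to 4. Every PNFLX array was brighter than every CONTROL array, and CONTROL 4 was the dimmest of all. The change was 2.69 ± 0.30 (log2, SE, n = 4 per group), about 6.43-fold. The CONTROL signals lay 8.29 to 51.2 times above the lowest listed signal of their arrays, and with 50 added to each signal the change was 2.37 (log2).

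Bri3, the lysosomal membrane protein, had the narrowest spread among the PNFLX arrays of the 5 genes. Its signal was 1808, 2545, 2626 and 2448 on PNFLX arrays 1 to 4, against 48.2, 25.1, 17.1 and 19.8 on CONTROL arrays 1 to 4. The PNFLX arrays lay within 1.45-fold of each other, and CONTROL 1 was the brightest of the dim CONTROL arrays. The change was 6.32 ± 0.31 (log2, SE, n = 4 per group), with an SD of 0.21 among PNFLX and 0.48 among CONTROL arrays. The CONTROL signals lay 3.24 to 10.5 times above the lowest listed signal of their arrays, and with 50 added to each signal the change was 4.96 (log2).

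The scaffold genes were lower in PNFLX. The signal of Nckipsd, the NCK-binding adaptor, was 22.0, 127, 60.0 and 64.5 on PNFLX arrays 1 to 4, against 2180.5, 6562, 3430.5 and 2859 on CONTROL arrays 1 to 4. The groups did not overlap, and PNFLX 1 was the lowest and PNFLX 2 the highest of the PNFLX arrays. The change was -6.11 ± 0.53 (log2, SE, n = 4 per group), and the dimmest CONTROL signal was 17.1 times the brightest PNFLX signal. Nckipsd stayed 7.39 to 52.6 times above the lowest listed signal on the PNFLX arrays, and with 50 added to each signal its change was -4.96 (log2).

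Itsn1, the intersectin scaffold, had a signal of 12.9, 58.4, 51.6 and 36.8 on PNFLX arrays 1 to 4, against 473, 349, 365 and 307 on CONTROL arrays 1 to 4. The CONTROL arrays were close together (SD 0.11, log2), the PNFLX arrays were more spread (SD 0.75, log2), and the groups did not overlap. The change was -3.62 ± 0.40 (log2, SE, n = 4 per group). PNFLX 1 was the lowest array here too, and without it the change was -3.25 (log2). PNFLX 1 had 57 of the 450 listed probes at its lowest signal of 2.97 (within 1%), and Itsn1 and Nckipsd were not among them. Itsn1 stayed 4.35 to 45.2 times above the lowest listed signal on the PNFLX arrays, and with 50 added to each signal its change was -2.25 (log2).

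**Figure D1:**
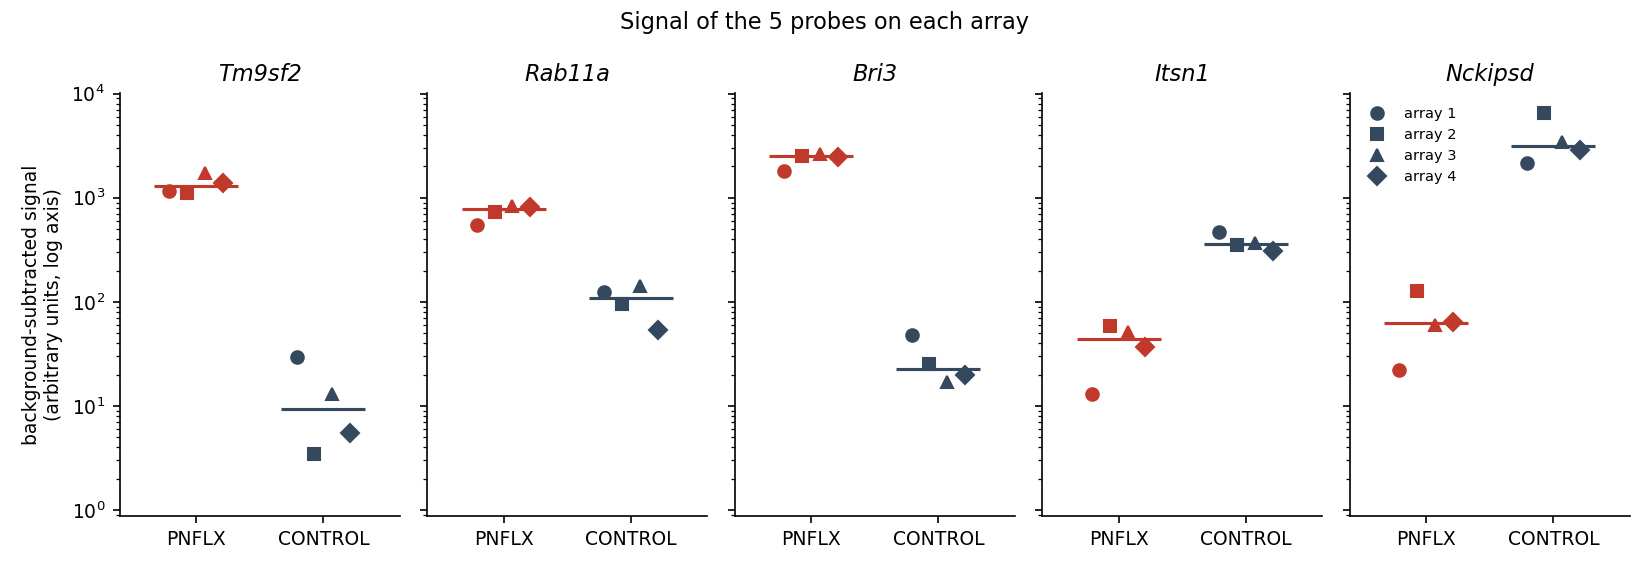
Background-subtracted signal (arbitrary units, log axis) of the 5 probes on each PNFLX and CONTROL array. Points are arrays, marked by number, and lines are group medians. Tm9sf2, Rab11a and Bri3 lie higher on every PNFLX array and Itsn1 and Nckipsd lower on every PNFLX array than on any CONTROL array.

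In bulk tissue, fewer cells of a type and less RNA per cell cannot be told apart, for these genes and for those below. All 5 probes passed limma's threshold (Benjamini-Hochberg adjusted p under 0.05 over all probes), where 0.118% of all probes did, and in all 5 the groups did not overlap, as in 2.32% of all probes. The genes were picked from the tables with these values known, so nothing is read from either count. With the variance trend or with replicate numbers as a block 0 of the 5 passed in limma, and 0 of all probes. In these fits 323 and 346 of all probes had an unadjusted p under 0.05 in limma. The trend runs over a probe's mean log2 value, which follows its change when CONTROL is centred at 0. The fit with it therefore cannot judge the largest changes. Rab11a and Itsn1, with smaller changes, did not pass in it either, and the cause was not tested. With equal 75th percentiles 2 of the 5 passed (4 of all probes). With quantile normalization, equal medians or the variance filter 3 of the 5 passed (10, 15 and 13 of all probes). The number of the 5 past the threshold fell to 1 (Bri3) without CONTROL 3, CONTROL 4 or PNFLX 4 (3, 4 and 2 of all probes). It was 2 (Tm9sf2 and Bri3) without CONTROL 2 (2 of all probes). Without CONTROL 1 or PNFLX 3 it was 3 (Tm9sf2, Bri3 and Nckipsd), with 26 and 12 of all probes. With all arrays 18 of all probes passed, so the calls over all probes moved as well. A change of at least 2.5 (log2) in either direction was seen in 1.05% of all probes (159, of which 42 were higher and 117 lower). This limit lies just below the smallest change of a member (2.69, Rab11a), so nothing is read from this share either. The residual SD within groups was 0.35 (log2) for Rab11a, 0.37 for Bri3, 0.54 for Itsn1, 0.78 for Nckipsd and 0.89 for Tm9sf2, against a median of 0.94 over all probes. From 17.2% (Rab11a) to 48.8% (Tm9sf2) of all probes had a lower one. The authors' limit on p favours probes with a low spread, so nothing is read from these values. By the authors' deposited table the member nearest to the limit of 0.4 was Rab11a, with a mean PNFLX value of 2.73. The listed probes nearest to that limit were Usp42 at 0.41 and Ovol2 at -0.41 by the authors' deposited table, and the listed probe with the largest p was Cacna1c (0.0498), so no member was close to either limit.

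**Figure D2:**
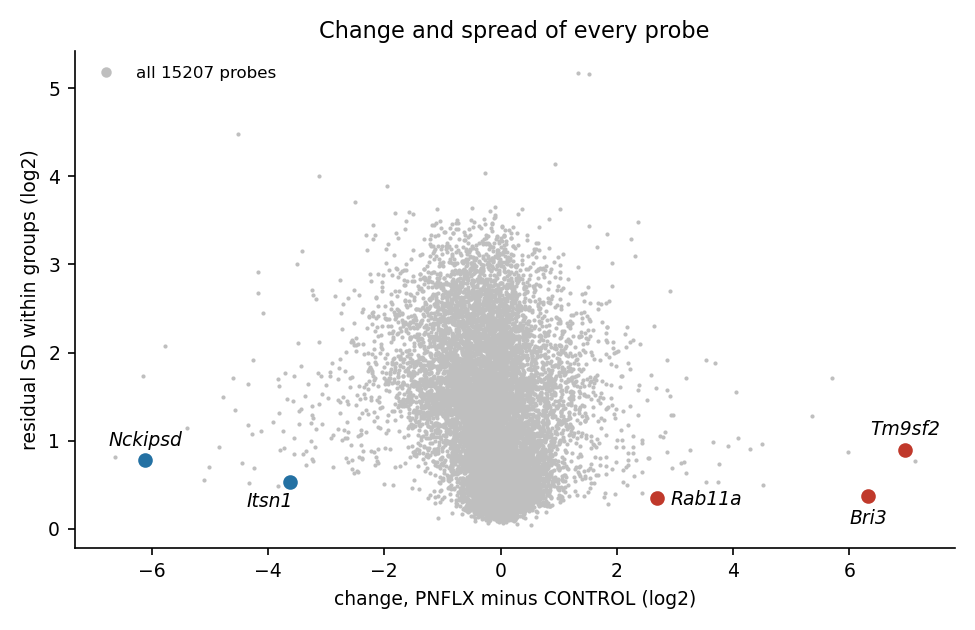
Change (PNFLX minus CONTROL, log2) against the residual SD within groups (log2) for all 15207 probes, with the membrane genes in red and the scaffold genes in blue. Tm9sf2, Bri3 and Nckipsd lie near the outer edges of the change axis and Rab11a and Itsn1 further in, with residual SDs of 0.35 to 0.89, below the median of 0.94. The limit on p in the authors' tables favours a low residual SD.

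Set side by side on each array, the membrane and scaffold genes lay far apart in PNFLX. Values in CONTROL scatter around 0 because each probe was centred on its CONTROL median, so only their spread carries information. The mean log2 value of Tm9sf2, Rab11a and Bri3 was 5.32, 4.87, 5.58 and 5.47 on PNFLX arrays 1 to 4, against 0.61, -0.53, 0.12 and -0.25 on CONTROL arrays 1 to 4. The mean log2 value of Itsn1 and Nckipsd was -5.95, -4.33, -4.54 and -4.70 on PNFLX arrays 1 to 4, against -0.53, 0.38, -0.06 and 0.13 on CONTROL arrays 1 to 4. The membrane mean minus the scaffold mean averaged 10.19 ± 0.85 in PNFLX and 0.00 ± 0.87 in CONTROL (log2, SD, n = 4 each). The largest value was on PNFLX 1 (11.28), where the scaffold genes were lowest, and the smallest among PNFLX was on PNFLX 2 (9.20). In CONTROL it ran from -0.91 on CONTROL 2 to 1.13 on CONTROL 1. The direction of this difference is fixed by the choice of genes, and the values describe how even it was over the arrays.

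**Figure D3:**
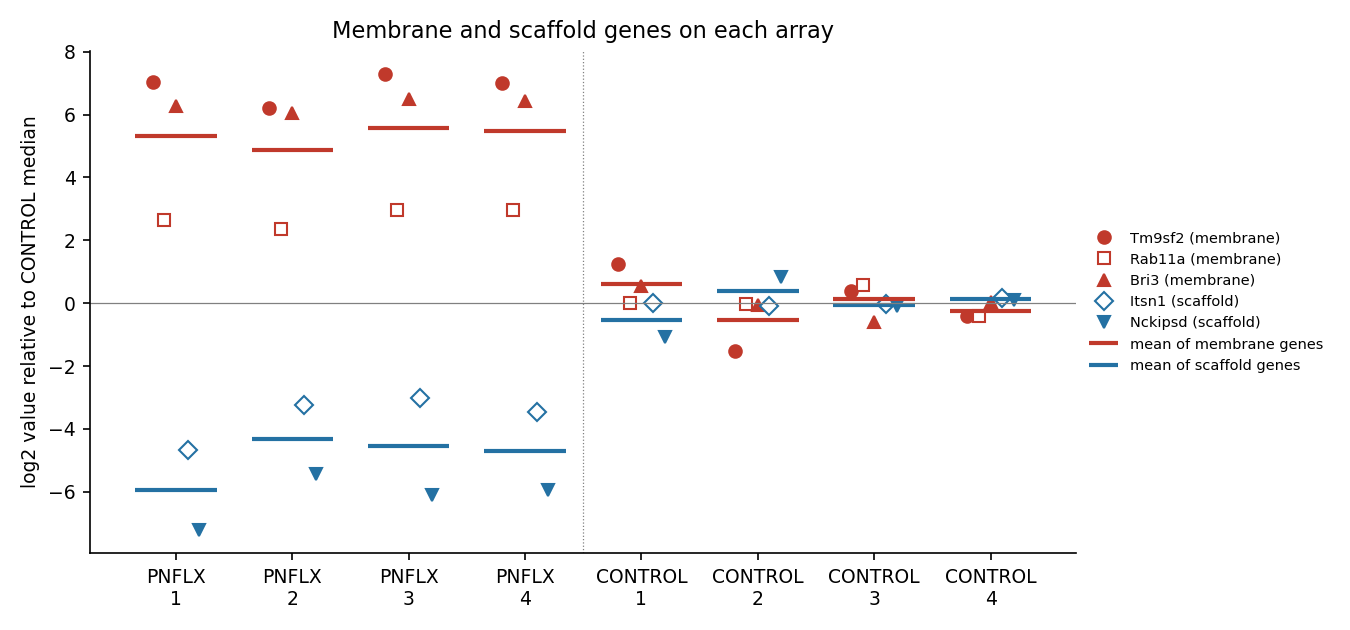
Log2 value relative to the CONTROL median of each gene on each array, PNFLX arrays on the left and CONTROL arrays on the right, with bars for the mean of the 3 membrane genes (red) and the mean of the 2 scaffold genes (blue). The means lie between 4.87 and 5.58 (membrane) and between -5.95 and -4.33 (scaffold) on PNFLX arrays, and CONTROL arrays scatter around 0 because each probe is centred on their median.

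CONTROL 1 and PNFLX 2 stand apart from the other arrays over all probes, with the SD of log2 values at 2.01 and 1.72 against 0.54 to 1.15 for the rest. Their deviations from the group means over all probes correlated with each other at 0.85 (Pearson r), although they belong to different groups. Without both arrays the change was 7.62 for Tm9sf2, 2.80 for Rab11a, 6.60 for Bri3, -3.74 for Itsn1 and -6.70 for Nckipsd (log2). All 5 changes were then larger than with all 8 arrays, and 4 of the 5 genes passed limma's threshold, Itsn1 being the exception. Over all 15207 probes 40 passed in that fit, against 18 with all 8 arrays. PNFLX 2 had the smallest value of the PNFLX arrays for Tm9sf2, Rab11a and Bri3 (6.22, 2.35 and 6.03, log2) and the one nearest 0 for Nckipsd (-5.42).

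Within groups the members did not vary as 1 block. Deviations from the group means over the 8 arrays correlated at -0.80 for Tm9sf2 with Nckipsd, 0.57 for Itsn1 with Nckipsd, 0.44 for Tm9sf2 with Rab11a and -0.22 for Rab11a with Bri3 (Pearson r, a description over arrays that share scaling). Without CONTROL 1 and PNFLX 2 these values were -0.64, 0.66, 0.54 and -0.52. Other values changed sign without these 2 arrays. They went from 0.39 to -0.19 for Tm9sf2 with Bri3, from -0.42 to 0.10 for Bri3 with Nckipsd and from -0.02 to 0.07 for Tm9sf2 with Itsn1. Of the 10 combinations of 2 members, 5 were positive and 5 negative over the 8 arrays.

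The named probes of the authors' tables most alike to each member were taken by Pearson r of log2 values over the 8 arrays, which is high for any probes that differ between the groups. For Tm9sf2 they were Tut4, a terminal uridylyltransferase (r = 0.98, and 0.84 for deviations from group means), and Ppp2r2b, a regulatory subunit of protein phosphatase 2A (0.98 and 0.45). Ppp2r2b was also the most alike to Bri3 (0.99 and 0.91), followed by the potassium channel gene Kcnj6 (0.98 and -0.61), whose change was only 0.53 (log2). For Rab11a they were the phosphatase gene Ptpdc1 (0.98 and 0.57) and the splicing factor gene Srsf11 (0.97 and 0.17). For Itsn1 they were the latrophilin gene Adgrl2 (0.99 and 0.90) and Gnl2, a nucleolar GTPase gene (0.98 and 0.63). For Nckipsd they were Lgi1, which encodes a secreted synaptic protein (0.99 and 0.90), and the ribosomal protein gene Rps15a (0.98 and 0.88).

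Other genes of the same pathways were listed in both directions. Of a list of 168 endosome and lysosome symbols, older names included, 5 had a probe in the authors' tables, Atp6v1c1 being named only through its gene ID. Of the 5, 3 were listed as higher and 2 as lower, and 0 of the 5 passed limma's threshold, beside 0.118% of all probes. Their changes ran from -4.35 to 4.49 with a median of 0.99 (log2), beside -0.07 over all probes. The authors chose the probes on these arrays for being changed, and list genes outside the tables have no named probe here, so the counts and medians say nothing about the rest of the list.

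Atp6v1c1, a subunit of the proton pump that acidifies endosomes and lysosomes, had a signal of 4482, 6111, 8738 and 4589 on PNFLX arrays 1 to 4, against 186, 624, 343 and 61.4 on CONTROL arrays 1 to 4. The groups did not overlap, CONTROL varied widely, and the change was 4.49 ± 0.64 (log2, SE). Rab7a, the GTPase of late endosomes, had a signal of 307, 382, 391 and 408 on PNFLX arrays 1 to 4, against 134, 253, 212 and 94.5 on CONTROL arrays 1 to 4. Its groups did not overlap and its change was 0.99 ± 0.35 (log2, SE), smaller than that of Rab11a. Gla, the lysosomal alpha-galactosidase, was at 1.09 ± 0.44 (log2, SE) with a median signal of 23.3 in PNFLX and 7.53 in CONTROL, and CONTROL 1 (24.8) lay within the PNFLX range.

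Vamp4, a SNARE protein of the trans-Golgi and endosomes, was listed as lower. Its signal was 2.97, 64.4, 6.31 and 7.01 on PNFLX arrays 1 to 4, against 296, 197, 139 and 103 on CONTROL arrays 1 to 4. The groups did not overlap, PNFLX 1 was at its lowest listed signal, and the change was -4.35 ± 0.77 (log2, SE). Tpp1, a lysosomal peptidase, was at -0.50 ± 0.27 (log2, SE) with overlapping groups.

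The list of 109 endocytic coat, scaffold and actin-linked symbols had 3 named in the tables, 1 listed as higher and 2 as lower. Of these, 0 of the 3 passed limma's threshold, beside 0.118% of all probes. Their median change was -3.06 (log2), beside -0.07 over all probes. These probes too were chosen by the authors for being changed, so the counts and the median say nothing about the rest of the list. Cltc, the clathrin heavy chain, was at 0.56 ± 0.28 (log2, SE), with a median signal of 12106 in PNFLX and 7314 in CONTROL. Its signals did not overlap between groups (10901 at the lowest in PNFLX, 9175 at the highest in CONTROL), but its log2 values, after the array scaling, did. Sos2, a guanine nucleotide exchange factor of Ras, was at -4.27 ± 0.71 (log2, SE), with a median signal of 6.39 in PNFLX and 119 in CONTROL. Arrb2, the beta-arrestin that directs receptors to clathrin coats, was at -3.06 ± 0.98 (log2, SE) with overlapping groups. PNFLX 1 was at its lowest listed signal for Sos2 and Arrb2.

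**Figure D4:**
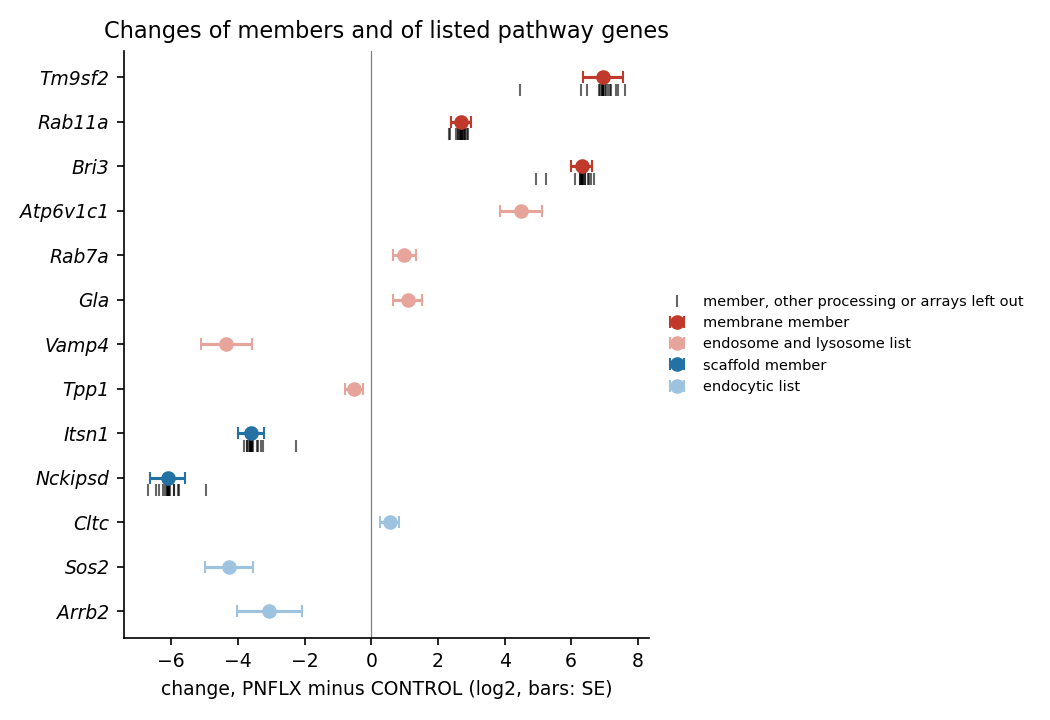
Change (PNFLX minus CONTROL, log2, bars are SE, n = 4 arrays per group) of the 5 members and of the 8 other named genes of the pathway lists, membrane side above and endocytic side below. Black ticks under the members are their changes under other processing or with arrays left out, and none of them crosses 0.

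Each of the 5 genes rests on 1 listed probe, and other probes of these genes on the array are not named here. Of the 11 genes with more than 1 listed probe, 9 had their probes listed in the same direction and 2 in opposite directions. Of 8 cell type marker lists, 6 had no named probe, among them those of excitatory neurons, interneurons, astrocytes, oligodendrocytes and microglia, so the tissue label was not checked against neuronal and glial markers. Of the 5 endothelial and pericyte markers, 3 were named (Rgs5, Cldn5 and Anpep), all listed as lower and none past limma's threshold (0.118% of all probes were). Their summed signal was 1876 to 2446 in PNFLX and 2174 to 3359 in CONTROL, with no marker at 0. Most of that sum is Cldn5, which was at -0.57 ± 0.29 (log2, SE), and Anpep was at -0.66 ± 0.30. Rgs5 was at -3.06 ± 0.77 (log2, SE), with groups that did not overlap and a median signal of 33.0 in PNFLX and 182 in CONTROL. Of the 5 striatal markers, Adcy5 was named and listed as higher, with a signal of 1409.7 to 2250.1 in PNFLX and 708 to 898 in CONTROL. The part of these markers in the changes of the 5 genes was not tested.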

How the data were processed

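Whole mPFC RNA of 4 PNFLX and 4 CONTROL samples was measured on Agilent one-colour arrays. The deposited value table holds log2 values of 15207 probes, scaled by the authors in a way not given in the sources used here, with each probe's CONTROL median at 0. For 450 probes the authors' deposited sheets repeat these log2 values and add the signal intensity of each array, background subtracted per the file headers, and a p-value without adjustment. Detection flags were not used here, so dim probes were kept. Columns of the sheets were matched to samples by source name.

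Every probe was fitted with limma 3.58.1 (lmFit, eBayes, two-sided) in R 4.3.3, PNFLX minus CONTROL, and called at a Benjamini-Hochberg adjusted p under 0.05 over the whole table. The fit was tested on simulated data. Python 3.11.15 was used for summaries. Symbols were updated through the gene IDs of the RefSeq table (GRCr8), which matched 433 of the 450 probes. Genes named are the 5 members, up to 12 listed genes per pathway list, and for each member the 2 most alike named probes, where probes with only an accession were passed over. The members and lists were chosen with earlier results of these data known. Alternatives were other normalizations, a variance filter, other moderation, array weights, blocks and left-out arrays.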

Additional observations from a re-analysis of the deposited data

Results flagged for a closer look

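The 5 genes and the membrane minus scaffold difference gave 12 groups of 4 arrays, and in 0 of them did Dixon's criterion set 1 array apart from the other 3. The largest ratio of gap to range was 0.737, for Tm9sf2 on PNFLX 2.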

How the results depend on the processing

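The 5 changes kept their direction under all alternatives run. When single arrays were left out, they ran from 6.48 to 7.40 for Tm9sf2, 2.54 to 2.86 for Rab11a, 6.12 to 6.51 for Bri3, -3.82 to -3.25 for Itsn1 and -6.45 to -5.76 for Nckipsd (log2). Bri3 was at 5.25 with quantile normalization and 6.69 with array weights, and the membrane minus scaffold difference of 10.19 was at 9.24 with quantile normalization. With 50 added to each signal, the changes were 4.48 (Tm9sf2), 4.96 (Bri3), -2.25 (Itsn1) and -4.96 (Nckipsd). These signals were not scaled between arrays, and without the offset they gave 7.17, 6.53, -3.41 and -5.91 for the same genes. The offset shrinks changes from a dim side. Calls were less stable. Of the 5 members, 3 passed in limma with quantile normalization (Bri3, Itsn1 and Nckipsd), 3 with equal medians and 3 without the 25% of probes of lowest variance (Tm9sf2, Bri3 and Nckipsd in both), and 2 with equal 75th percentiles (Tm9sf2 and Bri3). With single arrays left out 1 to 5 members passed, and only Bri3 passed in all 8 fits. Leaving out CONTROL 3, CONTROL 4 or PNFLX 4 left Bri3 alone, and leaving out CONTROL 2 left Tm9sf2 and Bri3. The probes called in all, 18 in limma on all arrays, were 10 with quantile normalization, 15 with equal medians and 13 with the variance filter. They were 4 with equal 75th percentiles, 150 with array weights, 40 without CONTROL 1 and PNFLX 2 and 43 with these arrays as a block. With single arrays left out they were 2 to 26. limma with a variance trend called 0 probes and 0 members (323 probes at an unadjusted p under 0.05). The SE in that fit was 5.96 for Tm9sf2, 4.61 for Bri3, 27.3 for Nckipsd, 0.84 for Rab11a and 0.87 for Itsn1 (log2). Its trend runs over mean log2 values, which follow the change when CONTROL is centred at 0, so it is no check on the largest changes. Rab11a and Itsn1, with smaller changes and SEs, did not pass in that fit either, and the cause was not tested. The replicate numbers as a block also gave 0 called probes and 0 members in limma (346 at an unadjusted p under 0.05). The block used title numbers. Source names number CONTROL 3 and CONTROL 4 as 4 and 5 and PNFLX 4 as 5, so CONTROL 3 and PNFLX 3 share a number by title only. Same-numbered arrays were taken to share only a number. Their deviations from the group means correlated at -0.21, -0.67, 0.44 and 0.35 for numbers 1 to 4. The values for numbers 1 and 2 involve CONTROL 1 or PNFLX 2, which stand apart, so they cannot decide whether same-numbered arrays are pairs. With CONTROL 1 and PNFLX 2 set aside, differently numbered arrays of the 2 groups correlated at 0.11 to 0.55. The values for numbers 3 and 4 lie within that range, so these arrays were no more alike than differently numbered ones. CONTROL 1 and PNFLX 2 correlated with each other at 0.85. The cause of the losses in the other fits was not tested. Signals near the lowest listed signal limit the size of the largest changes.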

Other observations

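Outside the fixed lists, and chosen after their values were seen, 3 further genes of membrane traffic, actin assembly or lysosomes were named in the authors' tables. Of these, 0 of the 3 passed in limma, beside 0.118% of all probes. Arpc5l, a subunit of the actin-nucleating ARP2/3 complex, was listed as lower at -2.36 ± 0.59 (log2, SE, n = 4 per group), with a median signal of 1484 in PNFLX and 8476 in CONTROL. Manba, the lysosomal beta-mannosidase, was at -1.40 ± 0.35 (log2, SE) with median signals of 9.68 in PNFLX and 21.3 in CONTROL. Scamp1, a membrane protein of recycling carriers, was at 0.62 ± 0.29 (log2, SE) with a median signal of 743 in PNFLX and 459 in CONTROL. For Arpc5l and Manba the groups did not overlap, as in 2.32% of all probes. The authors' tables were selected on the difference between the groups, so nothing is read from these counts.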
